A study of Mus musculus with 36 samples.

Results

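Imprinted genes were followed in germ cells and supporting cells sorted from fetal mouse gonads, across both sexes and 3 stages. The set was a list of 50 known mouse imprinted genes. Each was matched by its symbol, or by Entrez ID for older symbols, to a probe set with exactly 1 annotated gene, and of several probe sets the one with the highest array mean stood for the gene. Matches were found for 42 of the 50, among 19938 genes represented in the same way: 21 are known to be expressed mainly from the maternal copy, 20 from the paternal copy, and for 1, Inpp5f, the copy depends on the isoform. The probe sets of Mirg, Snrpn, Ube3a and Gnas carry several symbols, and H19, Slc22a3, Kcnq1ot1 and Zrsr1 were not listed with a single symbol, so these 8 were not analysed here. The 42 measured genes lie on 11 chromosomes.

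Genomic imprinting is the expression of a gene mainly from the copy inherited from 1 parent. It is set by DNA methylation placed on control regions in the egg or the sperm and kept in body cells through every division. Fetal germ cells erase the methylation inherited from both parents and later lay down a pattern that fits their own sex. Many imprinted genes act on fetal and placental growth, often with opposite effects for genes of the maternal and the paternal copy. For several genes of the set imprinting is known mainly in placenta or brain, as for Cd81, Ppp1r9a, Sfmbt2 and Kcnk9. The arrays did not tell the parental copies apart, so what follows concerns the total RNA of each gene and not imprinting itself.

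Affymetrix Mouse Gene 1.0 ST arrays were hybridised with RNA from pooled fetal gonads, dissociated with trypsin and sorted by fluorescence, in 12 groups of 3 arrays each. Germ cells of XY and XX fetuses at TS13, TS24 and TS34 carried an Oct4 reporter and came from progeny of C57BL/6NJ on a mixed background. Supporting cells of XY fetuses at TS24 and TS34 came from Tg(Sox9-cre/ERT2)1Msan/J mice, progeny of C57BL/6. Those of XY fetuses at TS13, and of XX fetuses at all 3 stages, came from Tg(Sry-EGFP)92Ei mice, progeny of CD-1, in which a fragment of the Y-linked gene Sry drives the fluorescent protein. The labels place TS13 before, TS24 during and TS34 after the onset of sexual differentiation. Cell type therefore cannot be told apart from mouse line, and neither can the XY minus XX difference of supporting cells at TS24 and TS34 or the change in XY supporting cells after TS13. Nothing in the labels says that the 3 arrays of a group came from separate pools, so p-values measure the spread between these arrays, which may be technical.

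Array medians lay between 6.41 and 6.84 on the log2 scale. Germ cell markers (Pou5f1, Ddx4, Dppa3, Dazl, Sall4, Dppa5a and Nanos3) averaged 10.3 to 11.2 in the germ arrays used and 5.75 to 7.11 in supporting arrays. The 8 supporting cell markers (Wt1, Gata4, Nr5a1, Kitl, Amh, Sox9, Fst and Irx3) averaged 6.56 to 7.21 in germ and 9.14 to 9.86 in supporting arrays. Not all were high in every supporting group. Amh had 9.66 to 10.18 in XY supporting cells at TS24 and TS34, and 5.75 to 6.31 in the other supporting groups. Fst (6.53 to 7.07) and Irx3 (6.31 to 7.04) were no higher than in germ cells in XY supporting cells at TS24 and TS34. The labels place TS13 before the onset of sexual differentiation, yet some supporting cell markers differed by sex there. Sox9 had 11.62 to 11.76 in XY and 8.21 to 8.71 in XX supporting cells at TS13. Fst had 7.83 to 8.06 in XY and 11.37 to 11.47 in XX supporting cells, while Amh overlapped. The array of XX germ cells at TS24 replicate 3 did not match its label: its Wt1 value was 11.19, against 7.18 and 8.19 on the other 2 arrays of that group. It was left out of all values and tests unless stated, so that 35 arrays were fitted and XX germ cells at TS24 had 2. All levels are log2 values from the deposited RMA table, in which a difference of 1 is a 2-fold difference, and they are compared between groups within a gene, never between genes. Genes were called changed at a Benjamini-Hochberg adjusted p under 0.05 in limma, fitted over 17571 genes that exceeded the 25th percentile of an array on at least 3 arrays. All 42 imprinted genes passed that filter, though Dio3 did so on 6 of 35 arrays and Mkrn3 on 17, so those 2 are near the floor of the measurement. Rian did so on 29 arrays and Calcr on 31. The germ values of Rian, 5.19 to 6.48, reached the 25th percentiles of the arrays, which were 5.17 to 5.60.

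Promoters of 5 of the genes on which the results turn are shown from RefSeq (GRCm38.p6), as the 250 bases upstream of an annotated start on the gene's strand. Zim1, Peg3 and Phlda2 have 1 such start in the table, Zdbf2 has 2 and Mest 3, and for these last the window shown is one that holds the motif described next. Capitals mark the letters TGCCGC on either strand, the motif bound by ZFP57, a zinc finger protein that keeps methylation at imprinting control regions. The first set holds Zim1, Peg3 and Mest, which were lower in XY than in XX supporting cells after TS13, and Zdbf2, which was higher. Igf2, which was lower as well, is not shown, and its 4 windows held 0 matches. Phlda2 is shown because it gave the largest sex difference among the imprinted genes in germ cells.
Zim1, chr7:6696433-6696682, minus strand: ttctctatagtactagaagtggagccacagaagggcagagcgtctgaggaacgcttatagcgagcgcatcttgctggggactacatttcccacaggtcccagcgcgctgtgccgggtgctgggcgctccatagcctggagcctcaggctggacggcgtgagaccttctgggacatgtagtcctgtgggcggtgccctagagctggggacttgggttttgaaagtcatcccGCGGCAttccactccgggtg
Peg3, chr7:6730420-6730669, minus strand: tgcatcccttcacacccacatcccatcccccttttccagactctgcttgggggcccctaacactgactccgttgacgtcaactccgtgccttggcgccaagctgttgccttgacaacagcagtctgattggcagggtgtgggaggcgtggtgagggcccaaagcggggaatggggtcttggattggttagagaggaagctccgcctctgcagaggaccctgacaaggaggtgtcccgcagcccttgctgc
Mest, chr6:30737800-30738049, plus strand: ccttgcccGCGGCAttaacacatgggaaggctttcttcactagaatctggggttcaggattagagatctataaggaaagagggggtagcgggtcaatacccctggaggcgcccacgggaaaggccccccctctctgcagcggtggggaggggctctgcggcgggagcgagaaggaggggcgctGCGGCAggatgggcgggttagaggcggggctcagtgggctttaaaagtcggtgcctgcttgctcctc
Zdbf2, chr1:63200108-63200357, plus strand: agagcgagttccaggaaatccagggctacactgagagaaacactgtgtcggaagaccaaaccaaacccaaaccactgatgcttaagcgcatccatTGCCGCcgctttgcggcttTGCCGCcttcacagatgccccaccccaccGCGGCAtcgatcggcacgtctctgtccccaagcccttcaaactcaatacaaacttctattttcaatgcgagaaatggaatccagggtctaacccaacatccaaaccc
Phlda2, chr7:143502525-143502774, minus strand: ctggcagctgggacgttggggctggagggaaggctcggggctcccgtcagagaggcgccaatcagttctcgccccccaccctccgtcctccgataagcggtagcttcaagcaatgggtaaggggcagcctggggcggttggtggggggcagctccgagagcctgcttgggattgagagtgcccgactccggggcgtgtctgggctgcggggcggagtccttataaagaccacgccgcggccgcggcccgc
The Zdbf2 window shown held 3 matches, that of Mest 2, that of Zim1 1, and those of Peg3 and Phlda2 none. The other Zdbf2 window held 0 matches, and of the other Mest windows 1 held 2 matches and 1 held 0. Across the 62 annotated start windows of 41 listed genes, 9 windows (14.52%) of 8 genes held the motif, against 2850 of 32851 windows (8.68%) over all genes. The median window held 11.5 CpG dinucleotides for imprinted genes and 6 for all genes. Peg3 and Usp29 start head to head: their 250-base windows share 163 bases on opposite strands, so the sequence printed for Peg3 holds a part of the Usp29 window. A match describes letters in a window and says nothing of binding.

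The comparison of germ with supporting cells asks which imprinted genes differ in total RNA between the 2 lineages. Peg10, Zim1, Grb10 and Igf2 were lower in germ cells by the largest differences, and Phlda2 and Sfmbt2 were higher by the largest. Averaged over sexes and stages, 29 of 42 genes were called, where 53.2% of all genes tested were called: 14 were higher (32.9% of all genes) and 15 lower (20.3%). Median differences were -0.04 for the imprinted genes and 0.08 for all genes. The split of all genes depended on scaling: 5785 were higher and 3560 lower as deposited, 4365 and 5271 after quantile normalization, and 4871 and 4729 after centring each array on its median. In bulk samples, fewer cells of a type and less RNA per cell cannot be told apart.

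**Figure D1:**
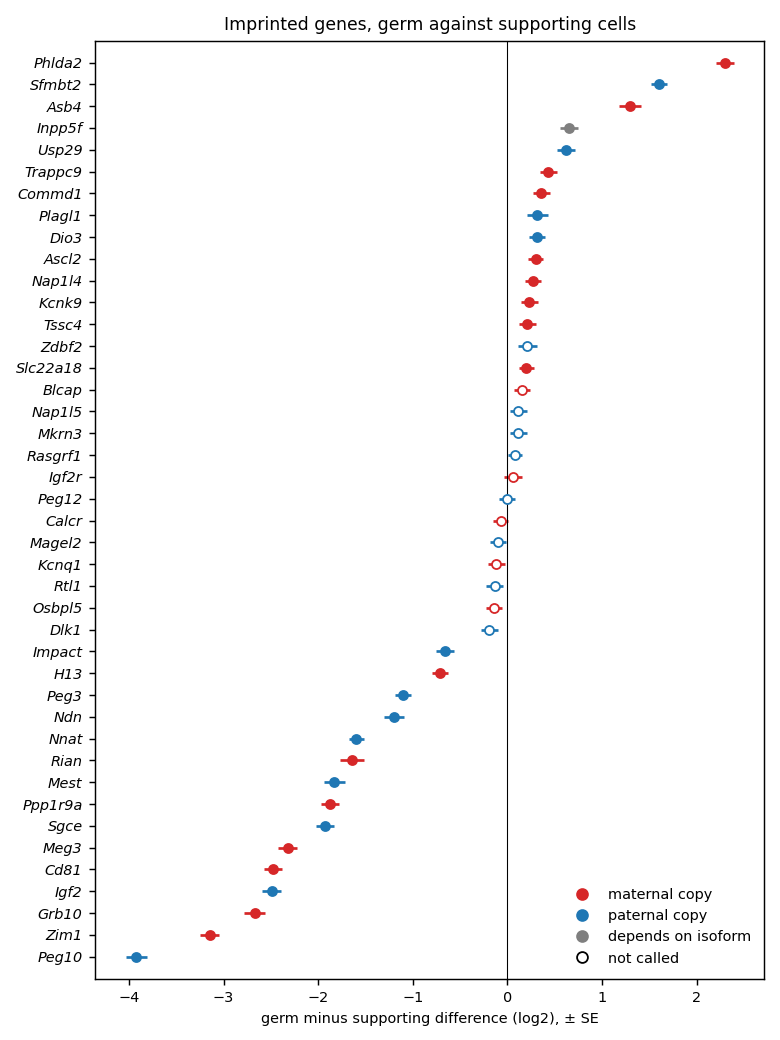
Germ minus supporting difference (log2, horizontal axis) with its standard error for each of the 42 imprinted genes, over 17 germ and 18 supporting arrays. Red points are genes of the maternal copy, blue of the paternal copy, grey depends on isoform, and open points were not called. Differences reach from -3.92 for Peg10 to 2.30 for Phlda2.

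Igf2, which encodes a fetal growth factor, and Grb10 were lower in germ cells, while Igf2r was not called. Plagl1 was higher on average, with a direction that differed between groups. Igf2 had a lowest, median and highest value of 6.79, 7.83 and 8.68 over 17 germ arrays, against 8.03, 11.05 and 11.58 over 18 supporting arrays, a difference of -2.49 ± 0.10 (SE, adjusted p = 1.29e-27). The 6 supporting arrays of XY cells at TS24 and TS34 lay between 8.03 and 8.90, and 5 of them reached into the germ range. Grb10, an adaptor that restrains insulin and IGF receptor signalling, spanned 6.0 to 8.26 in germ cells (median 7.13) and 8.97 to 10.69 in supporting cells (median 9.75), with no overlap and a difference of -2.67 ± 0.11 (adjusted p = 8.73e-28). Igf2r, the receptor that removes IGF2 from the cell surface, was not called, with medians of 9.64 in germ and 9.50 in supporting cells and a difference of 0.07. Plagl1, a zinc finger factor that acts on other imprinted genes, averaged 0.32 ± 0.11 higher (adjusted p = 0.0126), a call that was lost after quantile normalization (0.19) and after median centring (0.23). At TS34 it was higher in germ cells of XX fetuses, with 8.64 to 9.28 against 7.87 to 8.08 in supporting cells. In XY fetuses at TS34 it was lower in germ cells, with 6.89 to 7.21 against 7.47 to 7.75.

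The Peg10-Sgce cluster on chromosome 6 held the gene with the largest difference of the set. Peg10, a retrotransposon-derived gene needed for the placenta, lay between 6.52 and 9.04 in germ cells (median 8.03) and between 11.17 and 12.59 in supporting cells (median 11.97), a difference of -3.92 ± 0.11 (adjusted p = 3.79e-34). Its neighbour Sgce, which encodes epsilon-sarcoglycan of the cell membrane, had 5.96 to 7.02 (median 6.38) in germ cells against 7.57 to 9.40 (median 8.18) in supporting cells, a difference of -1.93 ± 0.09 (adjusted p = 8.43e-25). Ppp1r9a, encoding the actin-binding protein neurabin, had 6.49 to 8.48 (median 7.42) in germ cells against 8.94 to 9.88 (median 9.27) in supporting cells, a difference of -1.87 ± 0.09 (adjusted p = 1.27e-23). None of these 3 overlapped between the cell types. The cluster did not move as a block: Asb4, an ankyrin repeat protein of ubiquitin ligases, was 1.29 ± 0.12 higher in germ cells, and Calcr, the calcitonin receptor, was not called (-0.06).

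In the Peg3 domain on chromosome 7, Zim1 and Peg3 were on average lower in germ cells and Usp29 higher. Zim1, a maternally expressed zinc finger gene, spanned 5.32 to 7.08 in germ cells (median 6.35) and 6.09 to 11.45 in supporting cells (median 10.49), a difference of -3.15 ± 0.10 (adjusted p = 3.31e-31). The supporting arrays that overlapped were 5 of the 6 of XY cells at TS24 and TS34, as for Igf2. The paternally expressed zinc finger gene Peg3 averaged 1.10 ± 0.09 lower. The ubiquitin peptidase gene Usp29, its head-to-head partner, averaged 0.61 ± 0.10 higher (adjusted p = 1.94e-07). These 2 paternally expressed genes share promoter bases, and at TS34 their differences lay in different sexes. In XX fetuses Peg3 had 10.485 to 10.911 in germ and 12.410 to 12.601 in supporting cells. Usp29 overlapped there, with 6.983 to 7.504 and 6.944 to 7.219. In XY fetuses Peg3 overlapped, with 9.824 to 10.383 and 10.032 to 10.101. Usp29 had 7.456 to 8.294 and 6.242 to 6.495 there, against supporting cells of the Sox9-cre/ERT2 line.

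In the Dlk1-Dio3 domain on chromosome 12 the 2 measured noncoding RNAs of the maternal copy were lower. Meg3 had 6.90 to 8.70 (median 7.93) in germ cells and 9.54 to 10.69 (median 10.14) in supporting cells, a difference of -2.32 ± 0.10 (adjusted p = 2.2e-26), without overlap. Rian, the host of many small nucleolar RNAs, was 1.64 ± 0.13 lower, with some germ values near the floor. The protein-coding genes of the paternal copy did not follow: the Notch-like membrane protein gene Dlk1 (-0.20) and the retrotransposon-derived Rtl1 (-0.13) were not called, and Dio3, a thyroid hormone deiodinase, was 0.31 ± 0.09 higher at a level near the floor.

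The 8 measured genes of the Kcnq1ot1 cluster, also on chromosome 7 and all of the maternal copy, split. Cd81, a tetraspanin of the cell surface, had 8.03 to 9.36 in germ cells (median 8.63) and 10.50 to 12.55 in supporting cells (median 10.86), a difference of -2.48 ± 0.10 (adjusted p = 3.75e-28). Phlda2, which restrains placental growth, had 5.79 to 10.49 in germ cells (median 9.29) and 5.85 to 6.70 in supporting cells (median 6.27), a difference of 2.30 ± 0.09 (adjusted p = 2.49e-27). The germ arrays at or below 7.11 were the 6 of XY cells at TS24 and TS34. A further 4 genes were higher by 0.20 to 0.30 (Ascl2, Nap1l4, Tssc4 and Slc22a18), of which Nap1l4, Tssc4 and Slc22a18 were not called after quantile normalization or median centring. Kcnq1 and Osbpl5 were not called.

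Elsewhere, Mest, an alpha/beta hydrolase-fold gene used as a mesoderm marker, had 6.87 to 9.47 in germ cells (median 8.44) and 8.45 to 11.18 in supporting cells (median 10.63), a difference of -1.83 ± 0.11 (adjusted p = 5.76e-20). Nnat, Ndn, H13 and Impact were lower by sizes between -1.60 and -0.66. Sfmbt2, a Polycomb group gene, was higher by 1.60 ± 0.08, with 7.03 to 8.45 in germ cells and 5.78 to 6.61 in supporting cells and no overlap. Inpp5f, Trappc9, Commd1 and Kcnk9 were higher by 0.23 to 0.65, of which Kcnk9 was lost under both scalings and Commd1 after quantile normalization (adjusted p = 0.0512). The group mean of Inpp5f in XX cells at TS34 was nevertheless lower in germ (7.96) than in supporting cells (8.36). In total 8 of the 42 genes did not overlap between the 17 germ and 18 supporting arrays, where 5.97% of all genes did not overlap, 3.78% higher and 2.19% lower in germ cells: Peg10, Grb10, Meg3, Nnat, Sgce, Ppp1r9a and Cd81 were lower in germ cells and Sfmbt2 higher.

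With supporting cells of the Sry-EGFP line alone, each set against germ cells of the same sex and stage, 26 genes were called, 10 higher and 16 lower, where 48% of all genes were called, 30.6% higher and 17.3% lower. The difference of Mest was then -2.75, against -1.83 over all groups. Those of Zim1 (-4.29), Igf2 (-3.23) and Phlda2 (3.29) were larger as well, and that of Peg10 was -4.02.

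**Figure D2:**
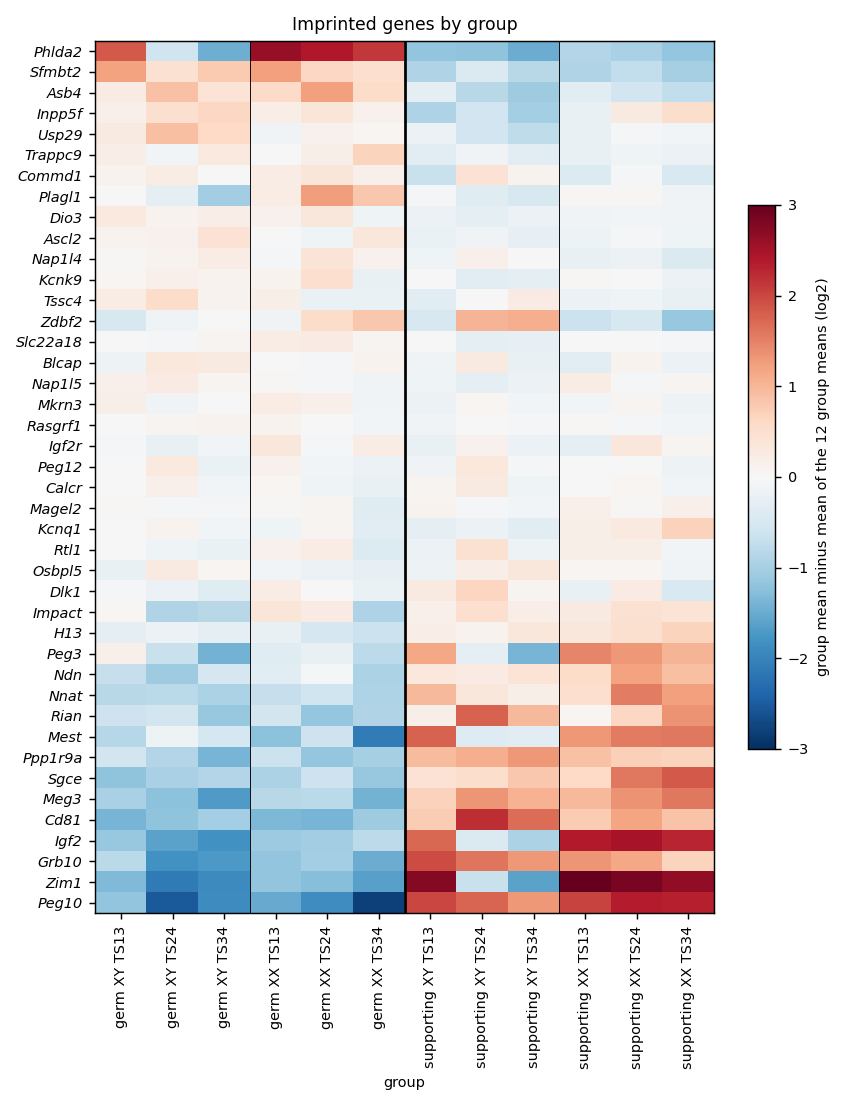
Mean log2 level of each of the 42 imprinted genes (rows, ordered by germ minus supporting difference) in the 12 groups (columns), minus the gene's mean over the groups. Red is above and blue below that mean. Phlda2 separates XX from XY germ cells after TS13, and Zim1, Igf2 and Mest separate XX from XY supporting cells after TS13.

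Sex and stage in germ cells were compared next. XY germ cells had less Phlda2 and Plagl1 RNA than XX germ cells at TS24 and TS34, and no imprinted gene was called between the sexes at TS13. At TS13, 0 of 42 genes were called by limma, with 2 at an unadjusted p under 0.05, and 0.0285% of all genes were called. At TS24, 4 were called, all lower in XY cells, where 1.96% of all genes were called and 1.46% were lower. At TS34, 7 were called, 2 higher and 5 lower, where 10.5% of all genes were called, 6.04% higher and 4.46% lower.

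Phlda2 had 9.41, 9.10 and 9.29 in XY germ cells at TS13, 6.65, 7.11 and 6.67 at TS24, and 5.79, 5.87 and 6.18 at TS34. XX germ cells had 10.49, 9.68 and 9.91 at TS13, 9.87 and 9.75 at TS24, and 9.85, 10.04 and 8.72 at TS34. Every XY array after TS13 was below every XX array used, and at TS34 XY replicates 2 and 3 lay in the range of supporting cells and replicate 1 just below it. The XY minus XX difference was -3.0 ± 0.25 at TS24 (adjusted p = 3.21e-12) and -3.59 ± 0.23 at TS34 (adjusted p = 1.26e-17). The change of this difference between TS13 and TS34 was -2.83 ± 0.32 (adjusted p = 1.4e-08). In XY germ cells the gene fell by 3.32 between TS13 and TS34 (SE 0.23, adjusted p = 3.95e-16). The left-out array read 6.62, and with it the TS24 difference was -1.94.

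Plagl1 had 7.66, 7.76 and 8.79 in XY germ cells at TS13, 7.64, 8.23 and 7.45 at TS24, and 6.89, 7.01 and 7.21 at TS34. XX germ cells had 8.34, 8.01 and 8.56, then 8.93 and 9.74, then 9.28, 8.77 and 8.64 at the same stages. The sexes overlapped at TS13 and separated at TS24 and TS34. XY minus XX was -1.56 ± 0.29 at TS24 (adjusted p = 0.000846) and -1.86 ± 0.26 at TS34 (adjusted p = 6.94e-07), and the sex difference changed between TS13 and TS34 by -1.62 ± 0.37 (adjusted p = 0.00488). At TS24 the call was lost without XX replicate 2 (-1.15), the array with the higher Wt1 value. The fall in XY cells between TS13 and TS34 (-1.03 ± 0.26, adjusted p = 0.00631) was lost without XY TS13 replicate 3 (-0.67). The tested change of the sex difference was not called with all 36 arrays (adjusted p = 0.0561).

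Peg3 had 11.61, 11.11 and 12.16 in XY germ cells at TS13, 10.54, 11.05 and 10.86 at TS24, and 9.82, 9.95 and 10.38 at TS34. XX germ cells had 11.15, 11.08 and 11.12, then 11.16 and 11.35, then 10.48, 10.91 and 10.70. The sexes overlapped at TS13, and all XY arrays were below the XX arrays at TS34. In XY cells TS34 minus TS13 was -1.58 ± 0.20 (adjusted p = 8.93e-08). XY minus XX at TS34 was -0.65 ± 0.20 (adjusted p = 0.03), a call lost without any of XX replicates 2 and 3 and XY replicates 1 and 2 at that stage (-0.53 to -0.65), with only the groups compared in the fit, and with all 36 arrays. The sex difference changed between TS13 and TS34 by -1.16 ± 0.29 (adjusted p = 0.011), which was lost without XY TS13 replicate 3 (-0.89) and with all 36 arrays (adjusted p = 0.0623).

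**Figure D3:**
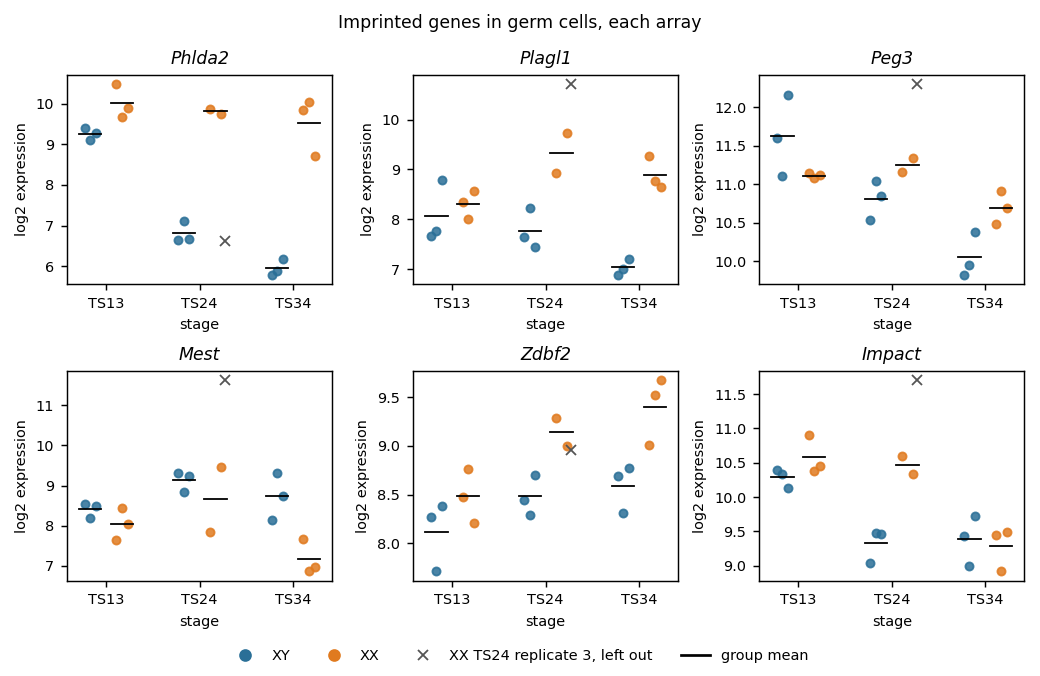
Log2 level of 6 imprinted genes on each germ cell array, by stage, with XY points left of XX points and the group mean as a line. The cross is the left-out XX TS24 array. XY arrays at TS24 and TS34 lie below the XX arrays used of the same stage for Phlda2 and Plagl1, and Impact is lower at TS34 than at TS13 in both sexes.

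Mest, Igf2, Peg10 and Zdbf2 were also called between the sexes at TS34. Mest had 8.14, 9.32 and 8.75 in XY germ cells and 7.67, 6.87 and 6.96 in XX germ cells at that stage, a difference of 1.57 ± 0.27 (adjusted p = 3.43e-05), with every XY array above every XX array. Igf2 had 6.79, 7.34 and 7.49 in XY cells against 8.40, 8.36 and 7.97 in XX cells, a difference of -1.04 ± 0.24 (adjusted p = 0.00202). Peg10 had 8.03, 7.90 and 8.27 in XY cells against 8.24, 6.66 and 6.52 in XX cells, where XX replicate 1 stood in the XY range and the others well below it, a difference of 0.93 ± 0.27 (adjusted p = 0.015). Zdbf2, a zinc finger gene of the paternal copy, had 8.69, 8.31 and 8.77 in XY cells against 9.01, 9.53 and 9.67 in XX cells, a difference of -0.81 ± 0.24 (adjusted p = 0.0171). The call of Peg10 was lost without XX replicate 2 or 3 or XY replicate 3 (0.62 to 0.82), and that of Zdbf2 without XX replicate 2 or 3 or XY replicate 2 (-0.67 to -0.75). With all 36 arrays, Igf2 (adjusted p = 0.21) and Peg10 (adjusted p = 0.405) were not called, at the same differences, since the added array enters only the estimate of the spread there.

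Impact and Ndn completed the calls at TS24. Impact, which restrains the amino acid sensor kinase GCN2, had 9.03, 9.48 and 9.46 in XY germ cells and 10.60 and 10.33 in XX germ cells, a difference of -1.14 ± 0.24 (adjusted p = 0.0045) that was lost without XX replicate 1 (-1.01). At TS34 both sexes were at the lower level, with 9.43, 9.00 and 9.72 in XY cells and 9.45, 8.92 and 9.48 in XX cells. At TS13 both were at the higher level, with 10.40, 10.33 and 10.12 in XY cells against 10.90, 10.38 and 10.46 in XX cells. Impact thus fell in both sexes: TS34 minus TS13 was -0.90 ± 0.22 in XY cells (adjusted p = 0.00367) and -1.30 ± 0.22 in XX cells (adjusted p = 1.27e-05). The XY change was lost without XY TS34 replicate 2 (-0.71). Ndn, a MAGE family gene of neurons, had 8.13, 6.70 and 7.51 in XY cells against 8.19 and 8.70 in XX cells at TS24. Its difference of -1.0 ± 0.28 had an adjusted p of 0.0491 and was lost without either XX array, without XY replicate 2 or 3, and under 4 other settings. With the left-out array included, 13 genes were called at TS24, where 4.35% of all genes were called, and the differences were -2.02 for Plagl1, -1.55 for Impact and -1.33 for Ndn. Supporting cell markers on these arrays averaged 6.86 to 7.14 in XY cells and 6.79 to 7.12 in XX cells, but XX replicate 2 was the higher of its pair in Wt1, Igf2 (8.68 against 7.30) and Mest (9.47 against 7.84). The part of other cells in these results was not tested.

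Over the stages, 6 genes were called in each sex between TS13 and TS34, where 8.14% of all genes were called in XY (4.81% lower) and 17.5% in XX germ cells (6.64% higher and 10.9% lower). In XY cells all 6 fell: Phlda2, Peg3, Plagl1 and Impact as given, and Grb10 (-0.90 ± 0.26, adjusted p = 0.0175) and Ppp1r9a (-0.84 ± 0.23, adjusted p = 0.0104). Grb10 had 7.39, 7.13 and 8.26 in XY cells at TS13, 6.68, 6.72 and 6.41 at TS24 and 6.0, 7.40 and 6.68 at TS34, and Ppp1r9a had 7.65, 7.35 and 8.48, then 7.69, 7.57 and 7.25, then 6.49, 7.36 and 7.12. Replicate 3 at TS13 was the high array for both. Both calls were lost without it (-0.56 and -0.51), without XY TS34 replicate 1 (-0.55 and -0.59), and with all 36 arrays.

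In XX germ cells, 4 genes fell and 2 rose, while the median of all genes was -0.14. Peg10 had 7.91, 8.79 and 8.64 at TS13, 7.91 and 8.25 at TS24 and 8.24, 6.66 and 6.52 at TS34, a change of -1.30 ± 0.27 (adjusted p = 0.000235). Sfmbt2 had 8.18, 8.33 and 7.78, then 7.33 and 7.65, then 7.37, 7.44 and 7.28, a change of -0.73 ± 0.20 (adjusted p = 0.00525) in which every TS34 array was below every TS13 array. Mest had 7.64, 8.44 and 8.05, then 7.84 and 9.47, then 7.67, 6.87 and 6.96, a change of -0.88 ± 0.27 (adjusted p = 0.0175). It was lost without TS13 replicate 2 or TS34 replicate 2 or 3 (-0.68 to -0.78), and TS24 replicate 2 stood above all its other arrays. Zdbf2 rose, with 8.47, 8.76 and 8.21 at TS13, 9.29 and 9.00 at TS24 and 9.01, 9.53 and 9.67 at TS34, a change of 0.92 ± 0.24 (adjusted p = 0.00358). Trappc9, a subunit of a vesicle tethering complex, had 7.51, 7.64 and 7.29, then 7.24 and 8.01, then 8.17, 8.11 and 8.12, a change of 0.65 ± 0.21 (adjusted p = 0.0209) that was lost without TS13 replicate 3 or TS34 replicate 2 or 3 (0.56 to 0.67). With all 36 arrays, Peg10, Mest and Sfmbt2 were not called (adjusted p = 0.123, 0.194 and 0.0714).

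Lists of markers used for other cells changed over the same stages in the germ arrays. The 4 measured erythroid markers averaged 6.20 to 6.78 at TS34 against 7.09 to 8.01 at TS13 in XY germ cells, and 6.17 to 6.56 against 7.17 to 7.80 in XX germ cells. The 5 endothelial markers averaged 6.31 to 6.80 at TS34 against 6.88 to 7.23 at TS13 in XY germ cells, and 6.47 to 6.87 against 7.01 to 7.15 in XX germ cells. Both lists were lower at TS34 without overlap in both sexes. The endothelial list holds Pecam1, which had 8.909 to 11.096 on the germ arrays used and 6.290 to 7.285 on supporting arrays. It had 8.909 to 9.738 at TS34 against 10.235 to 10.867 at TS13 in XY germ cells. In XX germ cells it had 9.522 to 10.040 against 10.104 to 10.486. The endothelial averages therefore include a gene that was high in the germ arrays themselves. In XX cells the 7 germ cell markers averaged 10.3 to 10.7 at TS34 against 10.8 to 11.0 at TS13, also without overlap. The part of other cells in the changes over stages was not tested.

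In the comparison of sexes in supporting cells, XY cells had less Zim1, Igf2, Peg3, Mest, Nnat, Sgce and Inpp5f RNA than XX cells at TS24 and TS34, and more Zdbf2 and Cd81 RNA. At TS13, where both sexes came from the Sry-EGFP line, 0 of 42 genes were called by limma, with 7 at an unadjusted p under 0.05, and 3.78% of all genes were called. Of the genes just named, Zim1, Igf2, Peg3 and Inpp5f were nevertheless lower on every XY array than on every XX array at TS13. Mest and Nnat were higher on every XY array there, and Sgce, Cd81 and Zdbf2 overlapped. The share of all genes without overlap at TS13 was not read. At TS24, 11 were called, 3 higher and 8 lower, where 15.3% of all genes were called, 9.75% higher and 5.58% lower. At TS34, 13 were called, 3 higher and 10 lower, where 14% of all genes were called, 8.24% higher and 5.74% lower. From TS24 on, the XY cells came from the Sox9-cre/ERT2 line and the XX cells from the Sry-EGFP line, so that sex and line cannot be told apart in these differences.

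Zim1 had the largest sex differences. It had 10.90, 10.52 and 10.30 in XY supporting cells at TS13, 6.92, 7.04 and 7.5 at TS24, and 6.26, 6.09 and 6.34 at TS34. XX supporting cells had 11.18, 11.45 and 11.24 at TS13, 10.71, 10.49 and 10.87 at TS24, and 10.62, 10.48 and 10.35 at TS34. All XY arrays after TS13 were below every XX array, and those at TS34 lay among the germ cells. XY minus XX was -3.54 ± 0.25 at TS24 (adjusted p = 1.81e-16) and -4.25 ± 0.25 at TS34 (adjusted p = 2.98e-19), and the sex difference changed between TS13 and TS34 by -3.54 ± 0.35 (adjusted p = 2.04e-10).

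Igf2 and Mest were also lower in XY than in XX cells at TS24 and TS34, and differed from each other in direction at TS13. Igf2 had 10.86, 10.83 and 10.55 in XY cells at TS13, 8.45, 8.45 and 8.90 at TS24, and 8.07, 8.13 and 8.03 at TS34, while XX cells kept 11.23 to 11.58 on all 9 arrays. Its XY minus XX difference was -2.90 ± 0.24 at TS24 (adjusted p = 4.49e-14) and -3.24 ± 0.24 at TS34 (adjusted p = 1.11e-15). Mest had 11.18, 11.08 and 10.87 in XY cells at TS13, 8.98, 8.45 and 9.24 at TS24, and 8.94, 9.05 and 8.79 at TS34, against 10.54, 10.72 and 10.43, then 11.07, 11.02 and 10.40, then 10.93, 10.89 and 10.75 in XX cells. The XY arrays of Mest were above the XX arrays at TS13 and below them at both later stages. XY minus XX was -1.94 ± 0.27 at TS24 (adjusted p = 1.57e-07) and -1.93 ± 0.27 at TS34 (adjusted p = 1.98e-07). For both genes the level in XY cells was lower at TS24 than at TS13, and the TS24 and TS34 values lay near each other. The mouse line of XY cells changed between TS13 and TS24, so line and stage cannot be told apart in that step, which was not tested.

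The step from TS13 to TS24 crosses the change of mouse line in XY cells for Peg3 as well, and was not tested. Peg3 was lower in XY cells at each later stage. It had 12.72, 12.63 and 12.57 in XY cells at TS13, 10.90, 11.34 and 11.37 at TS24, and 10.10, 10.03 and 10.10 at TS34, against 13.02, 12.95 and 12.87, then 13.05, 12.75 and 12.54, then 12.41, 12.60 and 12.51 in XX cells. XY minus XX was -1.58 ± 0.20 at TS24 (adjusted p = 2.24e-08) and -2.43 ± 0.20 at TS34 (adjusted p = 6.19e-14). Within the Sox9-cre/ERT2 line, TS34 minus TS24 was -1.13 ± 0.20 (adjusted p = 0.000692), and Peg3 was the 1 imprinted gene of 42 called in that comparison, where 1.06% of all genes were called and 0.905% were lower. The median of all genes was -0.17 there as deposited and -0.002 after quantile normalization. Zim1 (-0.92) and Igf2 (-0.53) were not called over that interval. Usp29, which shares promoter bases with Peg3, had 6.41, 6.24 and 6.5 in XY cells against 7.04, 6.94 and 7.22 in XX cells at TS34, a difference of -0.69 ± 0.23 (adjusted p = 0.0329).

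**Figure D4:**
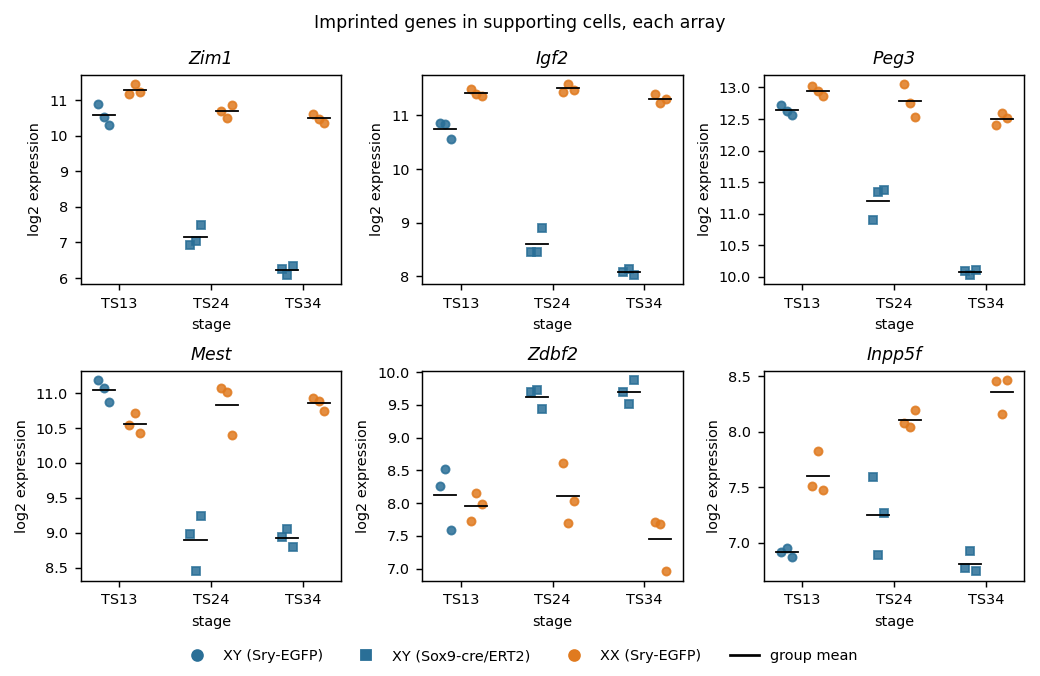
Log2 level of 6 imprinted genes on each supporting cell array, by stage, with XY points left of XX points, squares for the Sox9-cre/ERT2 line, circles for the Sry-EGFP line and the group mean as a line. Zim1, Igf2, Peg3 and Mest of XY cells at TS24 and TS34 lie below every XX array, and Zdbf2 lies above.

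Zdbf2 went the other way. It had 8.27, 8.52 and 7.59 in XY supporting cells at TS13, 9.70, 9.73 and 9.45 at TS24, and 9.71, 9.51 and 9.88 at TS34, against 7.73, 8.15 and 7.99, then 8.61, 7.69 and 8.03, then 7.72, 7.68 and 6.96 in XX cells. The sexes overlapped at TS13 and not later. XY minus XX was 1.52 ± 0.24 at TS24 (adjusted p = 1.69e-06) and 2.24 ± 0.24 at TS34 (adjusted p = 1.04e-10). Zdbf2 was thus higher in XY than in XX supporting cells and the reverse held in germ cells at TS34. Cd81 had 12.55, 11.70 and 11.86 in XY cells against 11.06, 10.84 and 11.12 in XX cells at TS24, and 11.54, 11.53 and 11.46 in XY cells against 10.88, 10.61 and 10.55 in XX cells at TS34. Its differences were 1.03 ± 0.23 (adjusted p = 0.000813) and 0.83 ± 0.23 (adjusted p = 0.00881). Rian was called higher in XY cells at TS24 alone, with 7.91, 8.72 and 8.19 in XY cells against 7.24, 6.82 and 7.28 in XX cells (1.16 ± 0.31, adjusted p = 0.00451), and the call was lost without XY replicate 2 (0.94).

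Among the other lower genes, Nnat, an endoplasmic reticulum protein of neurons, had 9.27, 8.87 and 8.70 in XY cells against 10.02, 10.20 and 10.21 in XX cells at TS24 (-1.20 ± 0.19, adjusted p = 3.42e-06). At TS34 it had 8.62, 8.79 and 8.93 in XY cells against 9.92, 9.75 and 9.85 in XX cells (-1.06 ± 0.19, adjusted p = 3.45e-05). Sgce had 8.07, 7.88 and 7.88 in XY cells against 9.40, 9.05 and 8.55 in XX cells at TS24 (-1.06 ± 0.22, adjusted p = 0.000213), and 8.21, 8.15 and 8.26 in XY cells against 9.16, 9.28 and 9.30 in XX cells at TS34 (-1.04 ± 0.22, adjusted p = 0.000303). Neither gene overlapped between the sexes at these stages. Inpp5f, an inositol phosphatase gene, had 7.60, 6.89 and 7.27 in XY cells against 8.08, 8.05 and 8.20 in XX cells at TS24 (-0.86 ± 0.23, adjusted p = 0.00463) and 6.77, 6.92 and 6.75 in XY cells against 8.46, 8.16 and 8.46 in XX cells at TS34 (-1.55 ± 0.23, adjusted p = 4.34e-07). Ndn was called at TS24 (-0.97 ± 0.26, adjusted p = 0.00408), with 8.79, 8.63 and 8.80 in XY cells against 9.61, 10.14 and 9.39 in XX cells, a call lost without XX replicate 2 (-0.76). A further 3 genes were called lower at TS34 alone, Usp29 among them. Peg10 had 11.20, 11.17 and 11.36 in XY cells against 12.50, 12.20 and 12.15 in XX cells (-1.04 ± 0.27, adjusted p = 0.00366), and the potassium channel gene Kcnq1 had 6.39, 6.09 and 6.31 in XY cells against 7.51, 7.37 and 7.0 in XX cells (-1.02 ± 0.22, adjusted p = 0.000404). Ppp1r9a was higher in XY cells at TS34 by 0.64 (adjusted p = 0.0496). With all 36 arrays Rian and Cd81 were not called at TS24 (adjusted p = 0.129 and 0.159), and Peg10, Cd81, Usp29 and Ppp1r9a not at TS34 (adjusted p = 0.318, 0.326, 0.0543 and 0.21).

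Markers of other cell types moved with some of these groups. The 4 measured steroidogenic markers averaged 6.91 to 7.21 in XY and 5.66 to 5.74 in XX supporting cells at TS34, and 5.89 to 6.43 in XY and 5.55 to 6.14 in XX cells at TS24. The 4 measured erythroid markers averaged 7.41 to 8.56 in XY and 6.18 to 7.80 in XX cells at TS24, and 7.06 to 7.25 in XY and 6.19 to 7.47 in XX cells at TS34. Stromal markers averaged 7.05 to 7.33 in XY and 6.94 to 7.40 in XX cells at TS24, and 6.96 to 7.03 in XY and 6.88 to 6.99 in XX cells at TS34. The ranges of the steroidogenic list did not overlap at TS34, and the part of such cells in the results was not tested.

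The change over stages in supporting cells separated the sexes in the same way. In XY cells 8 genes were called between TS13 and TS34, where 10% of all genes were called, 7.39% higher and 2.64% lower: Zim1 (-4.35 ± 0.25, adjusted p = 4.62e-19), Igf2 (-2.67 ± 0.24), Peg3 (-2.56 ± 0.20), Mest (-2.11 ± 0.27) and Nnat (-0.79 ± 0.19) fell and Zdbf2 (1.57 ± 0.24), Cd81 (0.91 ± 0.23) and Commd1 (0.78 ± 0.22) rose. Mouse line changed with stage here. Commd1, a copper and sorting factor, had 8.22, 7.99 and 8.08 at TS13, 9.48, 8.80 and 9.31 at TS24 and 8.85, 8.98 and 8.78 at TS34, and its call (adjusted p = 0.0117) was lost without XY TS13 or TS34 replicate 2 (0.72 in both cases). Nnat (adjusted p = 0.215) and Cd81 (adjusted p = 0.302) were not called with all 36 arrays. Stromal markers averaged 6.96 to 7.03 at TS34 against 7.64 to 7.81 at TS13 in these XY cells, and 6.88 to 6.99 at TS34 against 7.52 to 7.71 at TS13 in XX cells. Steroidogenic markers averaged 6.91 to 7.21 at TS34 against 5.95 to 6.16 at TS13 in the XY cells.

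In XX supporting cells, within the Sry-EGFP line throughout, 5 genes were called between TS13 and TS34, where 4.64% of all genes were called, 2.66% higher and 1.97% lower. Sgce rose, with 7.76, 8.33 and 7.95 at TS13, 9.40, 9.05 and 8.55 at TS24 and 9.16, 9.28 and 9.30 at TS34, a change of 1.24 ± 0.22 (adjusted p = 5.83e-05) without overlap between TS13 and TS34. Rian had 6.48, 6.75 and 6.42, then 7.24, 6.82 and 7.28, then 7.59, 7.75 and 8.18, a change of 1.29 ± 0.31 (adjusted p = 0.00423). Its values were higher at each later stage without overlap. Inpp5f (0.76 ± 0.23, adjusted p = 0.037) and Nnat (0.73 ± 0.19, adjusted p = 0.0124) rose, the first with 8.46, 8.16 and 8.46 at TS34 against 7.51, 7.83 and 7.47 at TS13, the second with 9.92, 9.75 and 9.85 at TS34 against 9.12, 9.11 and 9.09 at TS13. Zim1 (-0.81 ± 0.25) sat at the threshold with an adjusted p of 0.0492, and was lost when any of the 6 arrays was left out. The call of Inpp5f was lost without TS13 replicate 1 or 3 or TS34 replicate 1 or 3 (0.69 to 0.71), and that of Nnat without TS13 replicate 3 or TS34 replicate 1 (0.73 and 0.70). With all 36 arrays Sgce alone was called.

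The sex difference of supporting cells was tested for a change between TS13 and TS34 directly. It changed for 6 genes, where 4.88% of all genes were called, 3.11% higher and 1.77% lower: Zim1 as given, Igf2 (-2.57 ± 0.34, adjusted p = 2.4e-07), Mest (-2.41 ± 0.39, adjusted p = 1.1e-05), Peg3 (-2.12 ± 0.29, adjusted p = 3.71e-07), Zdbf2 (2.07 ± 0.34, adjusted p = 1.38e-05) and Nnat (-1.52 ± 0.27, adjusted p = 9.58e-05). Nnat was not called with all 36 arrays (adjusted p = 0.0983). In germ cells the same test called 3 genes, Phlda2, Plagl1 and Peg3, all with a negative change, where 3.69% of all genes were called, 1.87% with a negative change. Peg3 was thus called in both cell types with the same sign, at -1.16 in germ cells and -2.12 in supporting cells, and these 2 changes were not tested against each other.

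Whether the germ minus supporting difference itself changed between TS13 and TS34, averaged over sexes, was tested as well. It did for 10 genes, 2 higher and 8 lower, where 16.7% of all genes were called, 4.69% higher and 12% lower. Zim1 (2.07 ± 0.25, adjusted p = 1.05e-08) and Igf2 (1.20 ± 0.24, adjusted p = 0.000206) moved up. The XY supporting cells in this contrast came from the Sry-EGFP line at TS13 and the Sox9-cre/ERT2 line at TS34, so line and stage cannot be told apart in them: Zim1 changed by -4.35 there and by -0.81 in XX supporting cells, and Igf2 fell by 2.67 there. Phlda2 (-1.60 ± 0.23, adjusted p = 3.4e-07) moved down. Rian (-1.48 ± 0.31, adjusted p = 0.000311), Impact (-1.19 ± 0.22, adjusted p = 4.63e-05) and Meg3 (-1.15 ± 0.24, adjusted p = 0.000346) moved down too. Meg3 had 6.90, 7.34 and 7.74 in XY and 8.21, 7.53 and 7.07 in XX germ cells at TS34, against 10.07, 10.03 and 10.10 in XY and 10.59, 10.69 and 10.56 in XX supporting cells. At TS13 it had 8.20, 7.92 and 8.02 in XY and 8.26, 8.31 and 8.05 in XX germ cells, against 9.89, 9.54 and 9.72 in XY and 10.13, 10.20 and 9.64 in XX supporting cells. The gap in Meg3 was wider at TS34 in both sexes. Sgce (-0.73), Peg10 (-0.80), Ppp1r9a (-0.67) and Sfmbt2 (-0.57) were called with adjusted p of 0.0128 to 0.0377. Peg10 was lost without XX germ TS13 replicate 2 or 3, XY germ TS13 replicate 3, XX germ TS34 replicate 2 or 3, XY germ TS34 replicate 1 or 2, XX supporting TS34 replicate 1 or XY supporting TS34 replicate 3 (-0.64 to -0.79). Ppp1r9a was lost without XX germ TS13 replicate 2 or 3, XY germ TS13 replicate 3, XX supporting TS13 replicate 1, XY supporting TS13 replicate 3, XX germ TS34 replicate 2, XY germ TS34 replicate 1 or XY supporting TS34 replicate 3 (-0.50 to -0.65), and after quantile normalization (-0.51). Sfmbt2 was lost when any 1 of 12 arrays was left out (-0.47 to -0.58). These 3, Sgce (adjusted p = 0.193) and Igf2 (adjusted p = 0.0893) were not called with all 36 arrays.

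Genes of the maternal and paternal copies were then set side by side. In germ minus supporting, 9 of 21 genes of the maternal copy were higher and 7 lower, with a median difference of 0.06, and 4 of 20 genes of the paternal copy were higher and 8 lower, with a median of -0.12. These medians depended on the processing: the maternal one was -0.188 after quantile normalization, and the paternal one -0.425 with a filter at the 50th percentile. Of all genes tested, 32.9% were higher and 20.3% lower, with a median of 0.08. Single genes of either class lay far from the class medians. Between sexes in supporting cells at TS34, 2 maternal genes were higher and 2 lower (median -0.12), against 1 higher and 7 lower of the paternal genes (median -0.24). Of all genes, 8.24% were higher and 5.74% lower there, with a median of -0.01. In germ cells at TS34, 1 maternal gene (Phlda2) was lower and none higher (median 0.00), against 2 higher and 4 lower of the paternal genes (median 0.19). Of all genes, 6.04% were higher and 4.46% lower there, with a median of 0.06. Between TS13 and TS34 in XX germ cells, 1 maternal gene rose and none fell, and 1 paternal gene rose and 4 fell, with medians of -0.20 and -0.31. Of all genes, 6.64% rose and 10.9% fell there, with a median of -0.14. In XY minus XX supporting cells at TS34, no direction was common to a class. Within the paternal genes Zdbf2 opposed Igf2, Peg3 and Mest there, and within the maternal genes Zim1 opposed Cd81. Sex and mouse line cannot be told apart in that comparison. The opposed genes differed elsewhere: in germ minus supporting, Zim1 and Cd81 were both lower. In XY minus XX germ cells at TS34, Mest and Peg10 were higher, and Zdbf2, Igf2, Peg3 and Plagl1 lower. No test was run over a class, since its members were chosen with results known.

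**Figure D5:**
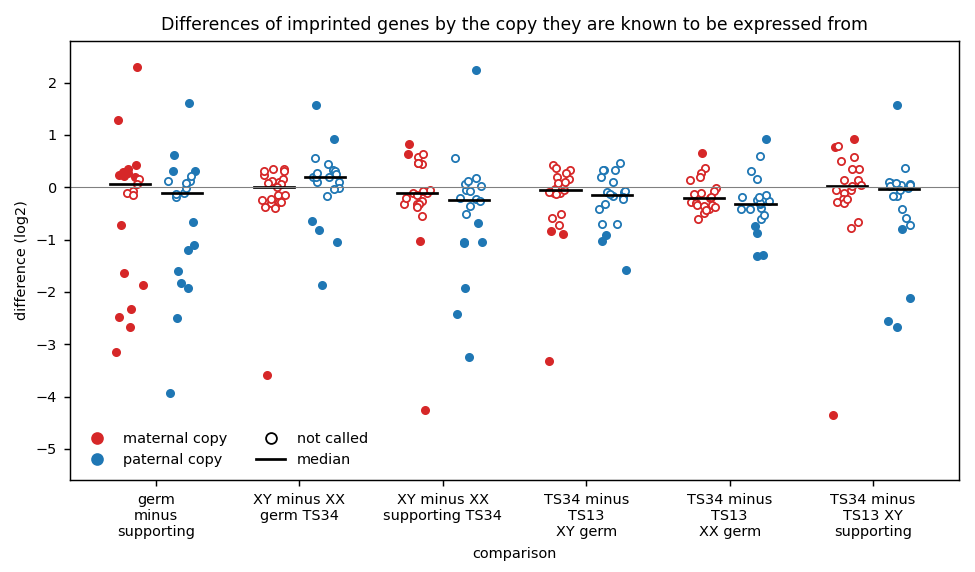
Difference (log2, vertical axis) of each gene known to be expressed from the maternal copy (red, 21 genes) and the paternal copy (blue, 20 genes) in 6 comparisons, with the class median as a line and open points for genes not called. The class medians lie between -0.31 and 0.19, and single genes such as Zim1, Phlda2 and Peg10 lie far from them.

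The range of group means within a cell type was read for each imprinted gene, without the same over all genes. It therefore does not tell whether these genes vary more or less than others. The range of the 6 group means exceeded 1 for 10 of 42 genes in germ cells and 15 of 42 in supporting cells, and exceeded 2 for 2 and 5 genes. The median range was 0.60 in germ cells and 0.63 in supporting cells. Magel2, Rasgrf1, Peg12, Mkrn3, Rtl1, Calcr, Nap1l5, Igf2r, Blcap, Dlk1 and Osbpl5 were called in none of the 15 comparisons.

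Further imprinted genes outside the 50 were read from a separate list of 15, all tested. In germ minus supporting, 3 were higher and 5 lower, where 32.9% of all genes tested were higher and 20.3% lower. Gatm, a creatine synthesis enzyme known as a Sertoli cell gene (-4.25 ± 0.10), the cell cycle inhibitor gene Cdkn1c (-2.09 ± 0.09), the noncoding RNA Airn of the Igf2r domain (-1.97 ± 0.10) and the coatomer gene Copg2 beside Mest (0.98 ± 0.09) had the largest differences. Copg2 and Mest therefore lay on opposite sides of 0. In XY minus XX supporting cells at TS34, 1 was higher and 4 lower, where 8.24% of all genes were higher and 5.74% lower. Tspan32 was higher (1.77 ± 0.21) and Ano1 (-2.50 ± 0.20), Cdkn1c (-1.14 ± 0.22) and the amino acid transporter gene Slc38a4 (-1.03 ± 0.24) were lower. Slc38a4 also fell in XY germ cells between TS13 and TS34 (-2.20 ± 0.24, adjusted p = 1.21e-09) and in the XY minus XX comparison of germ cells at TS34 it was lower (-1.67 ± 0.24, adjusted p = 9.44e-07). Phlda2 was the only one of the 42 genes with a larger fall in XY germ cells.

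Genes that place, keep or remove imprints were read from a list of 16, of which 15 were tested. In germ minus supporting, 7 were higher and 5 lower, where 32.9% of all genes tested were higher and 20.3% lower. Dppa3, which protects maternal methylation in the early embryo, was 4.73 ± 0.11 higher, the helicase Hells 2.35 ± 0.09 higher and the dioxygenase Tet1 2.0 ± 0.10 higher, while Zfp57, whose motif is in capitals in the promoters, was lower (-2.61 ± 0.10). In XX germ cells between TS13 and TS34, 3 rose and 2 fell, where 6.64% of all genes rose and 10.9% fell. They were led by the insulator protein gene Ctcf (-1.26 ± 0.21) and Uhrf1 (1.25 ± 0.22), which guides maintenance methylation. In XY germ cells 2 rose and 1 fell, where 8.14% of all genes were called and 4.81% fell. Uhrf1 (1.03 ± 0.22) and Ctcf (-0.88 ± 0.21) were called with the same signs. In XY minus XX germ cells at TS34, 3 were higher and none lower, Tet1 (0.79 ± 0.24), Trim28 (0.71 ± 0.21) and Dnmt3a (0.64 ± 0.19). Over all genes 6.04% were higher and 4.46% lower there. In XY minus XX supporting cells at TS24, 6 were higher and 1 lower, where 9.75% of all genes were higher and 5.58% lower. At TS34, 4 were higher and none lower, where 8.24% of all genes were higher and 5.74% lower. Uhrf1 was 1.27 ± 0.22, the maintenance methyltransferase Dnmt1 1.06 ± 0.22, Zfp57 0.80 ± 0.24 and Hells 0.74 ± 0.22 higher at TS34.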

How the data were processed

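RNA of sorted germ and supporting cells was measured on 36 Affymetrix arrays. The deposited values are log2 expression values made by the authors with RMA, per the submitters' processing notes. Summarised intensities carry no read depth, so the number of arrays limits the precision (between 2 groups of 3, the median standard error over genes was 0.211). Of 35557 probe sets, 21789 had 1 symbol in the platform annotation, 1621 several and 12147 were not listed; 21698 symbols were updated by Entrez ID to RefSeq names (GRCm38.p6), giving 19938 genes, 999 of them with over 1 probe set. No further normalization was applied.

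A mean per group was fitted with limma 3.58.1 in R 4.3.3 (lmFit, contrasts.fit, eBayes; 23 residual and 25.96 prior degrees of freedom) over 35 arrays and 17571 genes, after 2367 dim genes were removed. The 15 comparisons were adjusted by the Benjamini-Hochberg method over all genes, two-sided, at 0.05. In each comparison up to 10 called imprinted genes, by absolute difference, were given with every array; of the other 2 lists at most 4. The script was tested on simulated data. The members and lists were chosen with earlier results of these data known. Groups share replicate numbers, but same-numbered arrays did not deviate together (median correlation -0.007 over 187 pairs, against 0.003 over 374 pairs of other numbers), so the numbers do not pair the samples. Alternatives were all 36 arrays, quantile normalization, median centring, 2 other filters, the mean over probe sets, a mean-variance trend, only the groups compared, a replicate block and each array left out; Sry-EGFP pairs only was added after seeing the data.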

Additional observations from a re-analysis of the deposited data

Results flagged for a closer look

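These differences themselves changed between groups by a tested interaction (limma, adjusted p under 0.05). The germ minus supporting difference at TS34 exceeded or fell short of that at TS13 by 2.07 for Zim1, 1.20 for Igf2, -1.60 for Phlda2, -1.48 for Rian, -1.19 for Impact, -1.15 for Meg3, -0.80 for Peg10, -0.73 for Sgce, -0.67 for Ppp1r9a and -0.57 for Sfmbt2. In supporting cells, XY minus XX at TS34 less that at TS13 was -3.54 for Zim1, -2.57 for Igf2, -2.41 for Mest, -2.12 for Peg3, 2.07 for Zdbf2 and -1.52 for Nnat. In germ cells it was -2.83 for Phlda2, -1.62 for Plagl1 and -1.16 for Peg3. In supporting cells the mouse line of XY fetuses changed between these stages, so line and stage cannot be told apart there, and those cells are part of the germ minus supporting change as well.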

How the results depend on the processing

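None of the 86 named differences changed sign under a setting run for it. With all 36 arrays, imprinted genes called numbered 5 (10 in the reported fit) for the change of germ minus supporting over the stages, 3 (6) for XX germ TS34 minus TS13, 1 (5) for XX supporting TS34 minus TS13, 13 (4) for XY minus XX germ TS24, 4 (7) for XY minus XX germ TS34 and 1 (3) for the change of the germ sex difference. The shares of all genes called in these 6 moved the same way, in that order 12.6% (16.7%), 13.8% (17.5%), 3.15% (4.64%), 4.35% (1.96%), 7.33% (10.5%) and 1.62% (3.69%). With only the groups compared in the fit they numbered 8 (5) for XX supporting TS34 minus TS13, 2 (1) for XY supporting TS34 minus TS24, 2 (0) for XY minus XX supporting TS13, 21 (13) for XY minus XX supporting TS34 and 12 (6) for the change of the supporting sex difference, while the shares of all genes were 7.55% (4.64%), 1.26% (1.06%), 3.67% (3.78%), 24.3% (14%) and 9.79% (4.88%). Quantile normalization gave 5 (3) for the change of the germ sex difference, with 5.32% (3.69%) of all genes, and a median of opposite sign, -0.188 (0.055), over maternal genes in germ minus supporting. A filter at the 50th percentile gave a median of -0.425 (-0.117) over paternal genes. The cause was not tested.

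Leaving out 1 array at a time, counts were 28 to 30 for germ minus supporting, 7 to 10 for its change, 4 to 9 for XX germ and 3 to 9 for XY germ TS34 minus TS13, 2 to 4 for XX supporting and 7 to 9 for XY supporting TS34 minus TS13, 2 to 5 for XY minus XX germ TS24, 4 to 7 for XY minus XX germ TS34, 10 to 11 and 11 to 13 for XY minus XX supporting TS24 and TS34, and 2 to 5 and 6 to 7 for the change of the germ and supporting sex differences. XY supporting TS34 minus TS24 stayed at 1, and both TS13 sex comparisons at 0. The paternal and maternal medians ranged over -0.141 to -0.089 and 0.007 to 0.118.

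Of 86 differences named for 22 genes, the replicate block lost 2 calls, Zim1 in XX supporting TS34 minus TS13 (-0.81) and Ndn in XY minus XX germ TS24 (-0.99), and changed no other named call. Germ minus supporting called 26 genes in Sry-EGFP pairs alone. Over the other 8 settings, 655 of 688 pairs of a named difference and a setting held their call and 33 did not, 25 of these with all 36 arrays. With 1 array left out, 962 such pairs held and 74 did not.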

Other observations

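The array of XX germ cells at TS24 that was left out stood above all 35 other arrays for 10 imprinted genes: Mest (11.62), Plagl1 (10.71), Nnat (10.66), Impact (11.70), Igf2r (10.83), Dlk1 (9.62), Blcap (9.44), Asb4 (9.26), Peg12 (8.63) and Mkrn3 (6.17). For Igf2 (11.48), Zim1 (10.93), Peg10 (12.39), Grb10 (10.59) and Meg3 (10.62) it lay in the range of supporting cells and above every germ array. For Phlda2 (6.62) it lay in the supporting range, for Sfmbt2 (5.72) just below that range, and for both below the other XX germ arrays of that stage. Asb4 and Plagl1 were higher on it than on any supporting array (7.47 and 8.58 at most), so its profile was not that of the supporting groups in every imprinted gene. The 5 stromal markers averaged 9.29 on it, against an average of at most 7.81 on any other array. Of these markers, Pdgfra read 10.60 on it and at most 9.86 elsewhere, in XY supporting cells at TS13. Tcf21 read 10.83 on it and at most 7.39 elsewhere. Col3a1 was highest on it as well, with 9.212 against at most 8.036. Col1a1 and Nr2f1 were not highest on it. Col1a1 read 8.165 on it and 8.312 in XX germ cells at TS34 replicate 2. Nr2f1 read 7.623 on it and 8.497 in XX supporting cells at TS13 replicate 3.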
